A study of Mus musculus with 13 samples.

Results

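Argonaute (AGO) peaks that lie in the coding sequence (CDS) of mouse cortical mRNAs are described here. They are the rows of the deposited peak table that have a position and whose first region label is CDS, without the ribosomal RNA gene Rn45s. The rule took 3933 of 18284 peaks (21.5%), on 1577 gene names, and these held 53711 of 395152 tags (13.6%). A tag is a sequenced RNA fragment that ultraviolet light had crosslinked to AGO. The tissue was cortex of C57BL6 mice aged 7 to 8 weeks, anesthetized with isoflurane. In 4 sham libraries (numbered 1, 2, 3 and 5) the arteries were exposed without a filament. In the other animals the right middle cerebral artery was blocked for 35 min, and the cortex was collected 3 h later. The occluded side gave 5 ipsilateral libraries (1 to 5), and the opposite side of occluded animals gave 4 contralateral libraries (1, 2, 4 and 5). By its title, the series asks how glutamate homeostasis is acutely regulated after ischemic stroke. Each replicate number marks a separate day of surgery, and how many animals went into a library is not given in the sources used here, so p-values measure the spread between these libraries. The RNA level of the genes is not part of the tables used here, and in whole cortex fewer cells of a type and less bound RNA per cell cannot be told apart.

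AGO carries a microRNA (miRNA) and pairs its seed, the bases near the 5′ end of the miRNA, with complementary letters in a target RNA. Most known sites with an effect on the target lie in the 3′UTR, which ribosomes do not cross. Sites in coding sequence are also bound, share their letters with codons, and are generally held to repress less. miR-9 is a brain-enriched miRNA with roles in neurogenesis, and let-7 is a conserved family that is abundant in mature neurons.

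The sequences shown first are those on which the site counts turn. The mature miRNAs are from the RefSeq table built on GRCm38.p6, written 5′ to 3′, with the seed (bases 2 to 8) in capitals.
miR-9-5p: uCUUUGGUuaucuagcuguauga
let-7a-5p: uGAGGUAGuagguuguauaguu
miR-128-3p: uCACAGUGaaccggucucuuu
miR-27b-3p: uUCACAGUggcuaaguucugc
miR-7a-5p: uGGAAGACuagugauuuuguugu
A site was a match to bases 2 to 8, or to bases 2 to 7 followed by A. For miR-9-5p these are the letters ACCAAAG and CCAAAGA, and for let-7a-5p CTACCTC and TACCTCA. For miR-128-3p they are CACTGTG and ACTGTGA, and for miR-27b-3p ACTGTGA and CTGTGAA, so these 2 families overlap in their letters and cannot be told apart at a shared site. No sequence was matched for miR-124-3p, miR-23b-3p, miR-143-3p and miR-145a-5p, which leaves 40 of the 44 families listed.

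The most covered CDS peaks with a miR-9-5p, let-7a-5p or miR-128-3p site show what such a site looks like inside a reading frame. The windows were read on the mRNA strand of GENCODE M21 transcripts (GRCm38, the assembly that mm10 names), with the site in capitals.
Map2, miR-9-5p site: cctattcagatACCAAAGAgaacgggatca
Atp2b2, miR-9-5p site: acttcatacctCCAAAGAaaccaaaaacct
Mycbp2, let-7a-5p site: aggataaaaatCTACCTCAgaaaagcacag
Sparcl1, let-7a-5p site: ccctctcctatTACCTCAaatatggcggcg
Ank2, miR-128-3p site: gccgagactaaCACTGTGAcaaagcaaggg
The Map2 peak is at chr1:66380681-66380760 (mm10, plus strand) and had 130 tags in 12 of the 13 libraries. The Atp2b2 peak is at chr6:113817233-113817312 (minus strand) and had 97 tags in 13 libraries. The Mycbp2 peak is at chr14:103156318-103156397 (minus strand, 60 tags in 11 libraries). All 5 sites lie in coding exons. The Sparcl1 peak is at chr5:104092397-104092476 (minus strand, 64 tags in 12 libraries) and the Ank2 peak at chr3:127010923-127011002 (minus strand, 184 tags in 13 libraries). The Map2, Mycbp2 and Ank2 sites pair with bases 2 to 8 and are followed by A. Those of Atp2b2 and Sparcl1 pair with bases 2 to 7 and are followed by A. The Ank2 site also holds ACTGTGA, the match to bases 2 to 8 of miR-27b-3p, so the 2 families cannot be told apart there. Map2 encodes a microtubule-associated protein of dendrites, Atp2b2 a plasma membrane calcium pump, Mycbp2 a large ubiquitin ligase of axons, Sparcl1 a secreted protein of astrocytes and Ank2 an ankyrin that ties membrane proteins to spectrin.

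Sites of miR-9-5p and let-7a-5p stood well above the other families in CDS peaks. Of the 2253 peaks that lay wholly in coding sequence and had windows to compare, 194 (8.61%, Wilson 95% interval 7.52 to 9.84) held a miR-9-5p site. The coding sequence of the same transcripts held 275459 windows of 80 bases that overlapped no peak. The share of windows with a site was taken per transcript and averaged over the peaks. It was 1.67%, a ratio of 5.15. For let-7a-5p the shares were 3.99% of peaks (interval 3.26 to 4.88) and 0.819% of windows, a ratio of 4.88. Intervals cover counting error only, and peaks of one gene are not independent. In 3′UTR peaks, compared in the same way with 3′UTR windows, the ratios were lower, 2.22 for miR-9-5p and 1.97 for let-7a-5p. The same letters on the other strand of the CDS gave ratios of 0.804 and 0.731. Read in reverse order, which keeps the base composition, the letters gave 1.75 for miR-9-5p and 0.707 for let-7a-5p. With 6-base matches (bases 2 to 7) the miR-9-5p ratio was lower, 3.43, and that of let-7a-5p 3.80. In the 381 of these peaks with at least 20 tags the ratios were 7.22 and 10.1, and there miR-495-3p (5.93, on 5 peaks), miR-27b-3p (4.95) and miR-128-3p (4.62) were also high.

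Over all 40 families the median ratio was 1.43 in CDS peaks, 1.26 in 3′UTR peaks and 0.941 for the same letters on the other strand in CDS peaks. In CDS peaks 32 families had a ratio above 1 and 9 above 2. After miR-9-5p and let-7a-5p came miR-101a-3p (2.51), miR-128-3p (2.37), miR-27b-3p (2.26), miR-30a-5p (2.17), miR-96-5p (2.17), miR-129-5p (2.05) and miR-181a-5p (2.03). Ratios of the other-strand letters passed 2 in 3 families, so a ratio near 2 also occurred where no pairing with the mRNA is possible. The lowest ratio was that of miR-146a-5p, 0.59. In 27 families the CDS ratio was above the 3′UTR ratio, and miR-129-5p, miR-26a-5p and miR-137-3p were among those with the larger 3′UTR ratio. Of all 3837 CDS peaks with enough transcript sequence to search, 1795 (46.8%) held a site of at least 1 family.

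**Figure D1:**
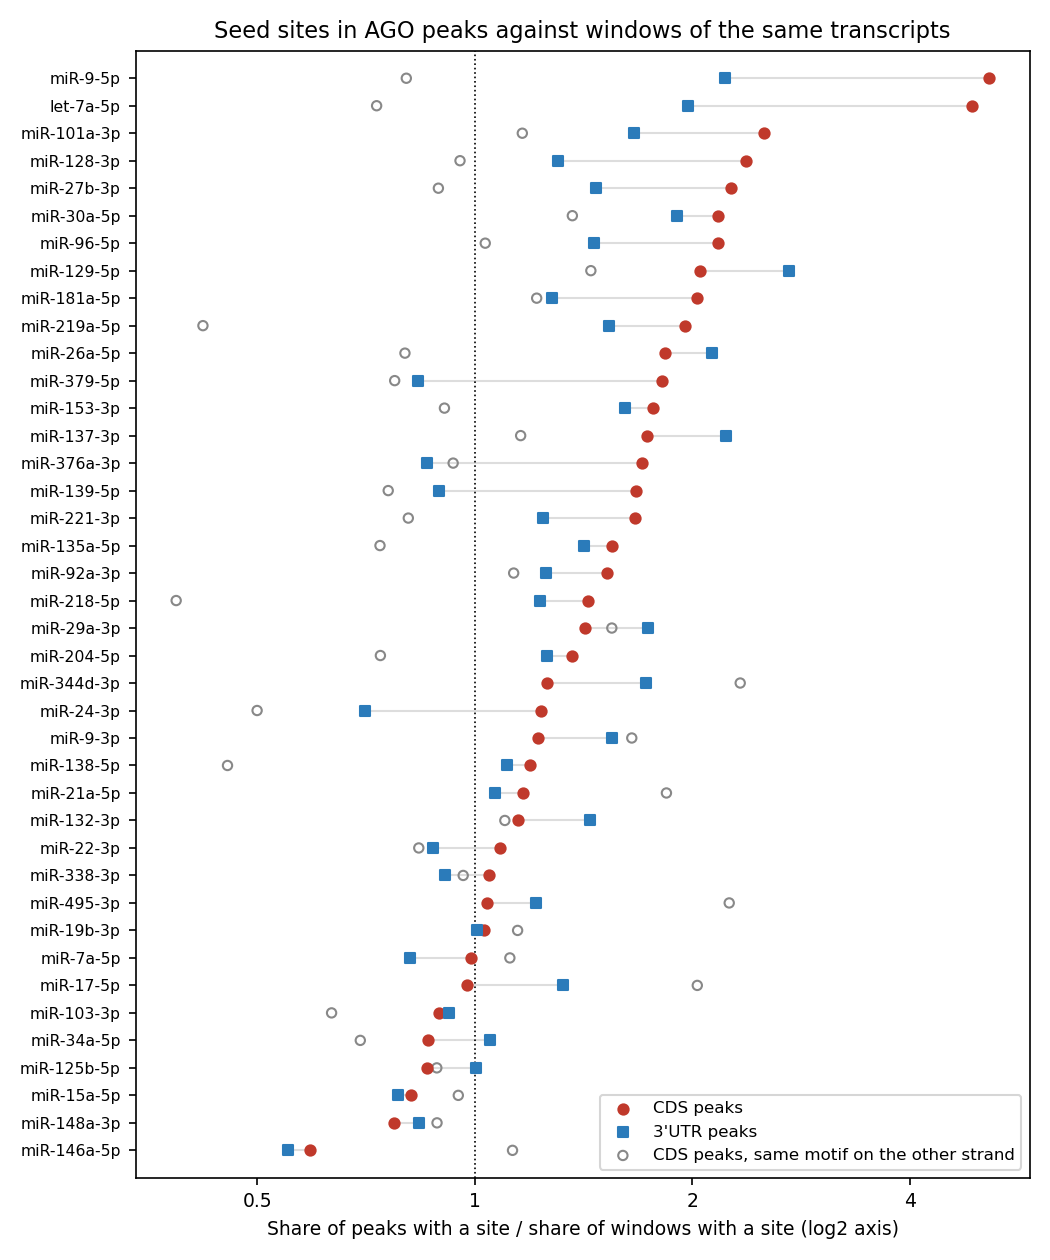
Share of peaks with a seed site divided by the share of windows of the same transcripts with one, on a log2 axis, for 40 miRNA families; filled circles are CDS peaks, squares 3′UTR peaks and open circles the same letters on the other strand of CDS peaks. miR-9-5p (5.15) and let-7a-5p (4.88) lie to the right of all other CDS values, and their open circles lie below 1.

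For miR-9-5p and let-7a-5p, longer matches stood out more. Sites that pair with bases 2 to 8 and are followed by A were found for miR-9-5p in 67 CDS peaks (2.97% against 0.184% of windows, a ratio of 16.2) and for let-7a-5p in 39 peaks (a ratio of 10.2). The ratios of these longer sites in 3′UTR peaks were 3.31 and 3.54. In CDS peaks the longer sites gave 5.52 for miR-128-3p, 4.30 for miR-27b-3p and 3.78 for both miR-30a-5p and miR-181a-5p. They gave only 1.16 for miR-101a-3p, 0.958 for miR-96-5p and 0.841 for miR-129-5p. Of the 69 CDS peaks with a miR-96-5p site, 52 held just the match to bases 2 to 7 followed by A. For miR-9-5p and for let-7a-5p alike, 77.8% of sites had their centre within 20 bases of the peak's centre, where even placement gives 55.4%. Over the 29 families with at least 20 such peaks the share ran from 39.5 to 87.1%, with a median of 66.7%, so a central place was not particular to these families.

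**Figure D2:**
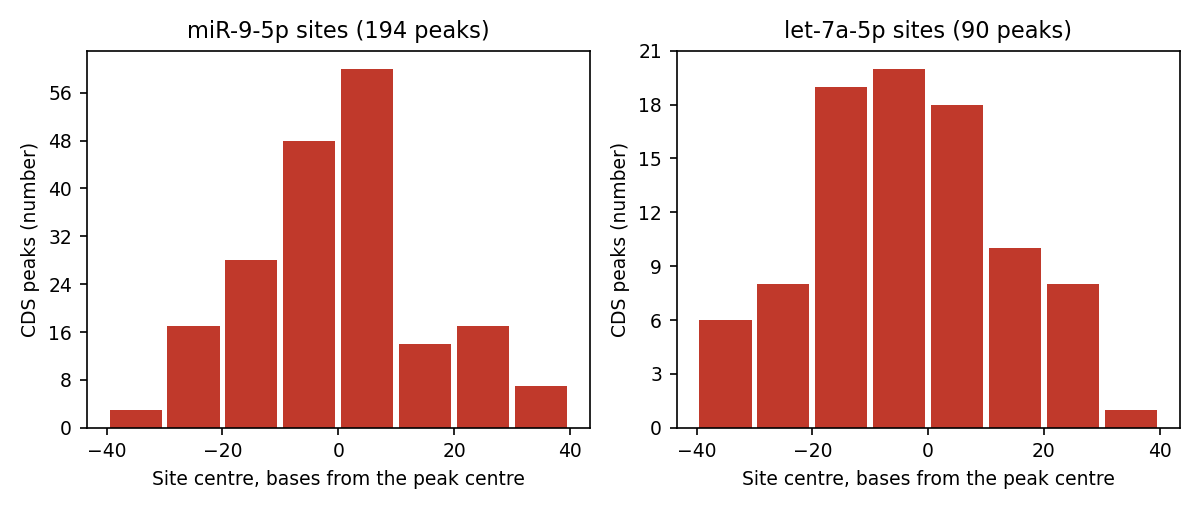
Number of CDS peaks by the distance in bases from the peak centre to the centre of the site, for miR-9-5p (194 peaks) and let-7a-5p (90 peaks), in bins of 10 bases. Both distributions are highest close to 0 and fall off toward the edges of the 80-base peaks.

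The tags of these peaks were also counted by library. Peaks with a miR-9-5p site took 6.92 to 11.3% of a library's CDS tags (median 9.28%) and 1.65 to 2.56% of its 3′UTR tags, and the CDS share was the higher in 13 of 13 libraries. For let-7a-5p the ranges were 1.84 to 5.27% and 1.02 to 1.79%, with the CDS share again higher in 13 of 13. The CDS share was higher in 13 of 13 libraries for miR-96-5p too, in 12 for miR-128-3p and miR-27b-3p, in 1 for miR-30a-5p and in 0 for miR-101a-3p, miR-129-5p and miR-181a-5p. The miR-96-5p site TGCCAAA shares the letters CCAAA with the miR-9-5p site CCAAAGA, and peaks counted for both were not separated. Btbd3, for example, had 2 site peaks with 61 tags under each of these families. Libraries are compared here on the same set of peaks, and the shares carry no test. Unlike the ratios, they depend on how common the letters are in each region. The window share of miR-101a-3p sites, averaged as above, was 0.354% in CDS and 1.27% in 3′UTRs. By condition, the miR-9-5p share was 9.28 ± 0.83% (SD, n = 4) in sham, 9.48 ± 1.89% (n = 4) in contralateral and 9.15 ± 1.02% (n = 5) in ipsilateral libraries. The let-7a-5p share was 4.76 ± 0.73%, 3.54 ± 1.14% and 3.95 ± 0.92%. For both miRNAs the ranges of the 3 groups overlapped.

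Sites were spread over many genes. In all, 311 CDS peaks in 270 genes held a miR-9-5p site and 147 peaks in 139 genes a let-7a-5p site. The gene with the most tags in miR-9-5p site peaks was Map2, with 302 tags in 4 peaks, followed by Atp2b2 with 179 tags in 2 peaks. Kmt2a, a histone methyltransferase gene, had 6 such peaks with 62 tags. For let-7a-5p the first gene was Dicer1, whose protein cuts miRNA precursors, with 76 tags in 3 peaks. Dicer1 had 98 CDS tags in 4 peaks in all and 11 tags in its 3′UTR. These genes were picked out by their tags in site peaks, after their values were seen.

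Coding-sequence peaks were dense just before the stop codon. Of the 3899 peaks that could be placed, 17.0% lay in the last of 10 equal parts of the coding sequence, against 8.00 to 9.85% in each of the others. That stretch held 18.3% of the tags. Within 200 bases of the stop codon lay 16.6% of the peaks, where the length of that stretch alone gives 10.5%. Of the 3933 peaks, 269 were labelled both CDS and 3′UTR. The shares near the stop codon were not taken without these, so peaks that reach into the 3′UTR are not separated out. miR-9-5p sites were not concentrated in the last part: 5.95% of the peaks there held one, against 8.58% elsewhere. For let-7a-5p the shares were 1.72% and 4.24%. The letters of CDS peaks held more A (31.2% against 26.5% in windows) and less G and C (47.8% against 51.7%). The 3′UTR peaks were likewise poorer in G and C than 3′UTR windows (38.3% against 44.5%). An exon edge fell inside 1396 CDS peaks (35.5%).

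**Figure D3:**
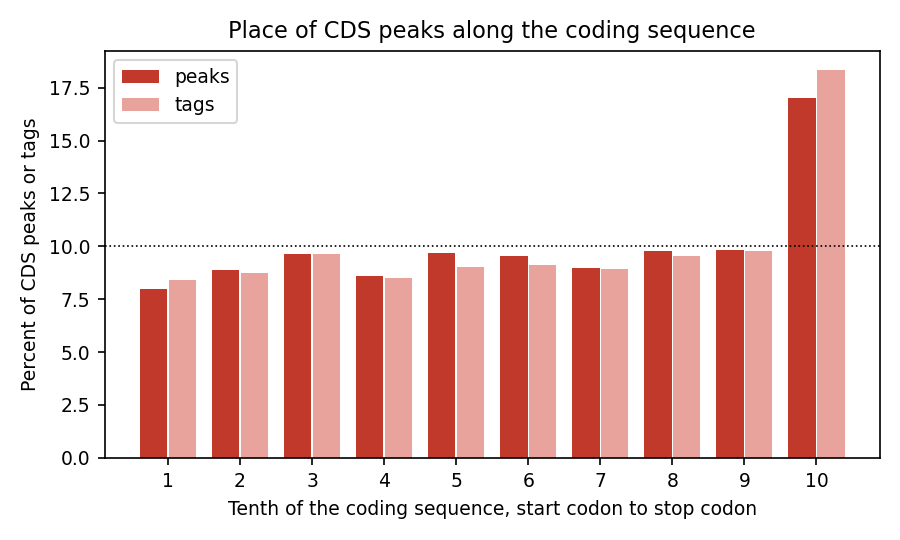
Percent of the 3899 placed CDS peaks (dark) and of their tags (light) in each of 10 equal parts of the coding sequence from start to stop codon; the dotted line is an even spread at 10%. Part 10, next to the stop codon, holds 17.0% of peaks and 18.3% of tags, and each of the others lies below 10%.

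Single CDS peaks were thinly covered. All were 80 bases long, with a median of 10 tags over the 13 libraries (3 to 251; 12 for the 7835 3′UTR peaks), and 618 had at least 20 tags. The median peak had tags in 7 libraries, and 21 peaks had tags in all 13. Another peak overlapped 871 (22.1%). Of the 1577 genes, 886 had 1 CDS peak and 61 had 10 or more, while 894 (56.7%) also had a 3′UTR peak. Library totals ran from 3780 to 71027 tags in all peaks and from 639 (ipsilateral replicate 5) to 8612 (contralateral replicate 1) in CDS peaks. The 3 libraries numbered 1 had the highest shares of tags in introns and intergenic sequence, 55.9 to 67.1% against 22.8 to 50.7% in the other 10. Sham replicate 3 (50.7%) was close to them, and the next library, contralateral replicate 2, was at 36.7%. Levels are therefore given per 10000 exonic tags of a library.

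By mean level the first 15 genes were Map2, Sptbn1, Cdr1, Map1b, Kif5a, Camk2a, Ank2, Map1a, Syt1, Arhgap5, Macf1, Cltc, Kmt2a, Slc1a2 and Sipa1l1, which together held 16.3% of the CDS tags. Their CDS peaks took 4.51 ± 0.529% of exonic tags in sham (SD, n = 4), 4.94 ± 0.120% in contralateral (n = 4) and 3.42 ± 0.497% in ipsilateral libraries (n = 5). Map2 had 38 CDS peaks with 1333 tags and 589 tags in its 3′UTR. Sptbn1, the gene of a beta spectrin that lines the membrane, had the most peaks, 51, with 1014 tags and only 210 in its 3′UTR. Per kilobase of coding sequence the order differed: Cdr1 had 532 tags, Camk2a 419, Syt1 356, Map2 243, Slc1a2 220, Kif5a 199, Sptbn1 143, Map1b 83.2, Ank2 47.0 and Macf1 19.4. Length thus puts the long spectraplakin gene Macf1 far below the short genes at a like number of tags.

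Slc1a2, the main glutamate transporter of astrocytes, is a gene of the series' question. It had 377 tags in 10 CDS peaks (chr2:102735931-102777680, plus strand) against 4218 tags in its 3′UTR. Its CDS level per 10000 exonic tags was 12.2, 17.9, 20.4 and 23.1 in sham replicates 1, 2, 3 and 5, then 20.7, 26.9, 11.8 and 19.8 in contralateral replicates 1, 2, 4 and 5. In ipsilateral replicates 1 to 5 it was 8.04, 19.1, 20.4, 20.1 and 10.4. The 3 groups overlapped. Hspa1b, an inducible heat shock gene, had 0 CDS peaks.

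**Figure D4:**
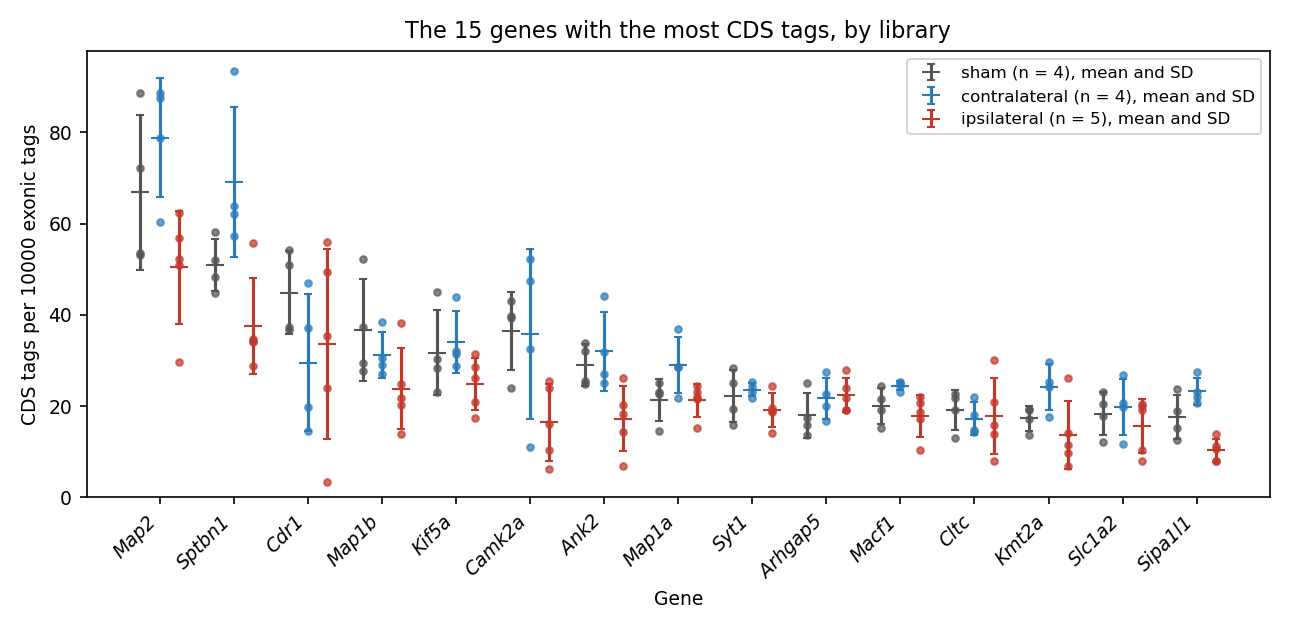
CDS tags per 10000 exonic tags of the library for the 15 genes with the highest mean level; each point is a library, and bars are the mean and SD of sham (n = 4), contralateral (n = 4) and ipsilateral (n = 5) libraries. For Map2, Sptbn1, Camk2a and Sipa1l1 the ipsilateral mean is the lowest of the 3, and of these 4 genes Sptbn1 and Sipa1l1 have all ipsilateral points below all contralateral points.

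Cdr1 needs a separate account, because the opposite strand of this locus gives Cdr1as, a circular RNA known to carry many miR-7 sites. The 10 peaks labelled CDS of Cdr1 (chrX:61184098-61185596, gene on the minus strand) held 825 tags. On the strand of the gene these peaks held 0 miR-7a-5p sites, and on the opposite strand 37. Over the whole transcript the opposite strand held 79. A window of the most covered CDS peak of all, chrX:61184098-61184177 with 251 tags in 12 libraries, is shown on the plus strand with a match to bases 2 to 8 of miR-7a-5p in capitals.
Cdr1 peak, opposite strand: catGTCTTCCcaaaaatctacgtcttcatg
The peak table gives no strand, so tags of the gene and of its antisense RNA cannot be told apart, and the Cdr1 peaks are CDS peaks by label only. Without Cdr1 the group means of the CDS share given next were 28.5% (sham), 27.6% (contralateral) and 22.5% (ipsilateral).

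The mean share of exonic tags in coding sequence was lowest in the ischemic hemisphere, with groups that overlapped. That share was 22.2, 32.8, 29.6 and 30.5% in sham replicates 1, 2, 3 and 5, a mean of 28.8 ± 4.57% (SD, n = 4). It was 29.7, 28.4, 30.3 and 22.7% in contralateral replicates 1, 2, 4 and 5 (27.8 ± 3.48%, n = 4), and 19.6, 23.1, 22.9, 25.7 and 22.3% in ipsilateral replicates 1 to 5 (22.7 ± 2.19%, n = 5). The ipsilateral library was below the sham library of the same surgery day in 4 of 4 pairs, by 6.80 points on average (SD 3.05), and below the contralateral one in 4 of 4 pairs, by 5.10 points (SD 3.95). The groups overlapped, since sham replicate 1 and contralateral replicate 5 lay among the ipsilateral values. The contralateral library was below sham in 2 of 3 pairs. The share is a score over all members and carries no test.

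Other ways to take the share gave other distances between the groups. Restricted to the 894 genes with both kinds of peak, the CDS share was 37.7 ± 3.97%, 36.1 ± 4.95% and 29.5 ± 1.54% in sham, contralateral and ipsilateral libraries. There the ipsilateral values (27.6 to 31.8%) lay just under the sham values (31.9 to 40.9%). They overlapped the contralateral values, since contralateral replicate 5 was at 29.1%. Without the 3 libraries numbered 1, which had the highest intron and intergenic shares, the means were 30.9, 27.1 and 23.5% of exonic tags. Without the 15 genes named above the means were 26.7, 25.4 and 20.95%, with the ipsilateral library below the contralateral one in 3 of 4 pairs. As a share of all peak tags, introns and intergenic sequence included, the means were 16.6 ± 6.53%, 17.8 ± 3.90% and 14.7 ± 4.70%, and the ipsilateral library was below sham in 3 of 4 pairs. On this scale ipsilateral replicate 1 was at 6.46% and sham replicate 1, of the same surgery day, at 8.23%. Without ipsilateral replicate 1 alone the ipsilateral mean was 16.8%, above that of sham. With sham replicate 1 left out as well, the sham mean was 19.4%, above the ipsilateral mean. The 3′UTR share of exonic tags was 65.5 ± 4.14% in sham, 66.1 ± 3.21% in contralateral and 72.0 ± 1.76% in ipsilateral libraries. It is nearly the complement of the CDS share and is no separate evidence.

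**Figure D5:**
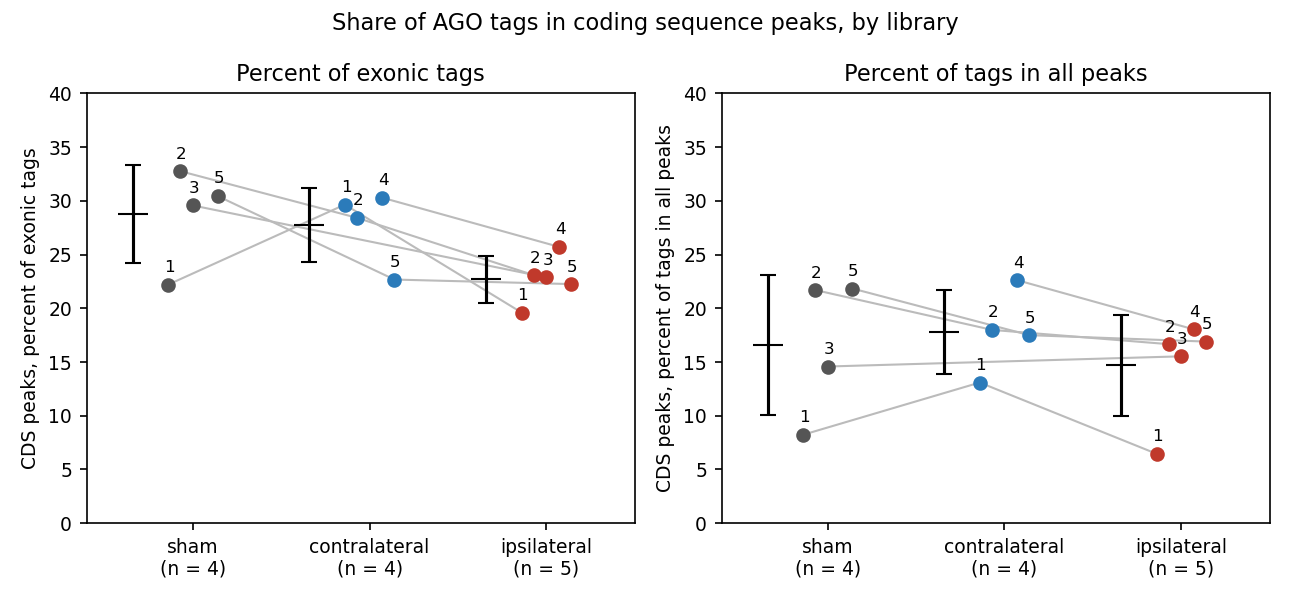
Percent of exonic tags (left) and of tags in all peaks (right) that lie in CDS peaks, by library; numbers are replicate numbers, grey lines join libraries of 1 surgery day, and bars are the mean and SD of sham (n = 4), contralateral (n = 4) and ipsilateral (n = 5) libraries. On the left, ipsilateral libraries lie between 19.6 and 25.7%, and sham replicate 1 (22.2%) and contralateral replicate 5 (22.7%) overlap them.

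No coding-sequence sum of a gene passed the test in any comparison. The tags of a gene were summed within each region, and 622 of these sums, 105 of them CDS, were tested with edgeR's quasi-likelihood test. Between ipsilateral and sham libraries it called 0 of 622 sums (0% background) and 0 of 105 CDS sums at a Benjamini-Hochberg adjusted p under 0.05. At an unadjusted p under 0.05 there were 12 CDS sums and 57 in all. Between ipsilateral and contralateral libraries the calls were 0 of 622 (0%) and 0 of 105, with 13 CDS sums and 48 in all at an unadjusted p under 0.05. Here DESeq2, the other tool run, called 14 of the 617 sums it gave an adjusted p (2.27%), of which 2 of 105 were CDS sums, those of Sipa1l1 and Sptbn1. Between contralateral and sham libraries the calls were 0 of 622 (0%) and 0 of 105, with 0 CDS sums and 6 in all at an unadjusted p under 0.05. DESeq2 called 2 of 520 sums (0.385%) between ipsilateral and sham libraries and 0 of 617 (0%) between contralateral and sham, none of them CDS.

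The CDS sums that could be tested, the deepest 105 of 1577, had negative medians in ischemic tissue. Against sham the median log2 difference was -0.28 over the 105 CDS sums, of which 80 were lower, -0.01 over all 622 and 0.14 over the 324 3′UTR sums. Against contralateral it was -0.33 for CDS (77 of 105 lower), 0.17 for all and 0.17 for 3′UTR sums. Of the other regions, the 11 sums in exons of no named class lay low too, at -0.20 against sham and -0.47 against contralateral. The 131 intron sums were at -0.16 against sham but at 0.52 against contralateral. Without ipsilateral replicate 1 the median of all sums was -0.21 against sham and -0.19 against contralateral, beside -0.30 and -0.31 for CDS. Without the filter, over 1577 CDS sums, the CDS medians were -0.34 against sham (65.1% lower), -0.16 against contralateral (55.6% lower) and -0.17 contralateral to sham. Over all sums of that fit the medians were -0.09, 0.21 and -0.29 in the same order. Contralateral against sham, the medians were 0.02 (51 of 105 lower), -0.10 and 0.04. Both ipsilateral comparisons use the same 5 libraries. With all peak tags as library size the contralateral median moved to 0.16 for CDS and to 0.09 for all sums, with 37.1% of CDS sums lower in place of 48.6%. Without the 3 libraries numbered 1 the CDS medians were -0.40 and -0.19 in the ipsilateral comparisons and -0.20 contralateral to sham, where 67 of 94 CDS sums were then lower. These medians are descriptions and carry no test.

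Sipa1l1, which encodes a postsynaptic protein that acts on Rap signalling and actin, had the smallest adjusted p. Its CDS level in 26 peaks (chr12:82340924-82450105, plus strand) was 12.5, 15.2, 23.8 and 18.9 in sham replicates 1, 2, 3 and 5, and 23.1, 20.6, 21.9 and 27.5 in contralateral replicates 1, 2, 4 and 5. In ipsilateral replicates 1 to 5 it was 11.3, 7.96, 10.6, 8.03 and 13.9. All ipsilateral libraries lay below all contralateral ones, and 1 of them lay above the lowest sham library. The ipsilateral to contralateral log2 difference was -1.17 (SE 0.27), with an edgeR adjusted p of 0.112. By DESeq2 it was -1.16 (adjusted p = 0.00561), and by edgeR without ipsilateral replicate 1 it was -1.29 (adjusted p = 0.0499). Without that library edgeR called 8 of 532 sums (1.5%), of which 1 was CDS, against contralateral and 2 of 532 (0.376%), none of them CDS, against sham. Against sham the edgeR value was -0.77 (SE 0.27, adjusted p = 0.459).

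Sptbn1 behaved in a like way against the contralateral side. Its level in 51 peaks (chr11:30100519-30219699, minus strand) was 44.8, 48.3, 52.1 and 58.2 in sham, then 62.0, 63.8, 57.3 and 93.4 in contralateral libraries, in the order of their numbers. In ipsilateral replicates 1 to 5 it was 28.8, 34.6, 34.3, 34.1 and 55.7, all below the contralateral libraries. Only ipsilateral replicate 5, which has 639 CDS tags, reached the sham values. The ipsilateral to contralateral log2 difference was -0.90 (SE 0.27, edgeR adjusted p = 0.246), and -0.94 by DESeq2 (adjusted p = 3.7e-05).

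Eef2 encodes the ribosome translocation factor. Its level per 10000 exonic tags was 13.6 ± 2.75 in sham, 17.8 ± 7.60 in contralateral and 7.10 ± 2.11 in ipsilateral libraries. All 5 ipsilateral values (3.48 to 8.75) lay below all others (9.88 to 27.2). In ipsilateral replicate 5 a count of 3 tags equals a level of 10.4, and in ipsilateral replicate 4 one of 6.02. Lower levels in these libraries, for any gene, rest on fewer than 3 tags. For Eef2 the ipsilateral to contralateral log2 difference was -1.23 (SE 0.36, edgeR adjusted p = 0.246). Zfp365, a zinc finger gene expressed in neurons, was at 7.71 ± 0.90, 7.57 ± 1.28 and 2.78 ± 2.12, with no overlap between ipsilateral libraries and the others. Its ipsilateral to sham log2 difference was -1.24 (SE 0.43, edgeR adjusted p = 0.458). Taok1, a kinase gene, was at 7.77 ± 0.66 in sham and 4.04 ± 2.02 in ipsilateral libraries, which overlapped by 1 library (log2 difference -0.999, SE 0.34, edgeR adjusted p = 0.458).

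Map2 and Camk2a also had their lowest group mean in the ipsilateral libraries, without passing a test. Map2 was at 53.6, 72.1, 53.2 and 88.6 in sham, 88.5, 78.8, 87.6 and 60.4 in contralateral and 29.8, 56.9, 51.0, 62.2 and 52.2 in ipsilateral libraries, and the groups overlapped. Camk2a, the gene of a kinase of the postsynaptic density, was at 23.9, 39.7, 43.0 and 39.3, then 47.5, 32.5, 52.2 and 10.98, then 6.14, 25.5, 24.1, 16.1 and 10.4 in the same order. Its ipsilateral libraries overlapped sham replicate 1 and contralateral replicate 5. Cdr1 varied widely within the ipsilateral group, from 3.48 in ipsilateral replicate 5 to 55.9 in ipsilateral replicate 3.

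A few genes had higher coding-sequence levels in ischemic tissue, again below the threshold. Slc17a7, which encodes the vesicular glutamate transporter of cortical excitatory neurons, was at 1.52, 4.63, 1.13 and 1.57 in sham and 2.75, 4.38, 10.1 and 0 in contralateral libraries. In ipsilateral replicates 1 to 5 it was at 4.25, 6.76, 8.16, 6.02 and 3.48, and sham replicate 2 lay among these values. The levels in ipsilateral replicates 4 and 5 rest on 3 tags or fewer. The ipsilateral to sham log2 difference was 1.42 (SE 0.67, edgeR adjusted p = 0.570). Serinc1, which encodes a membrane protein, was at 5.14 ± 2.56 in sham, 4.16 ± 3.01 in contralateral and 11.01 ± 7.42 in ipsilateral libraries, log2 differences of 0.84 and 1.31. Snap25, a synaptic fusion protein gene, differed by 0.93 from contralateral. Tnrc6a, whose protein binds AGO, differed by 0.76 from contralateral, but was at 8.07 in both the sham and the ipsilateral mean, with the contralateral mean at 4.95.

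An exact permutation test over libraries, two-sided and run on the same 622 sums per 10000 exonic tags, can reach 0.0159 in the ipsilateral comparisons and 0.0286 in the contralateral one. It gave a p under 0.05 for 18 of 105 CDS sums (69 of 622 in all) against sham and for 18 (59 in all) against contralateral. Contralateral against sham it did so for 1 (13 in all). After Benjamini-Hochberg adjustment over the 622 sums the smallest exact permutation values were 0.429, 0.494 and 0.8998. The smallest possible p was reached by 5 CDS sums against sham, 7 against contralateral and 1 contralateral against sham. The same counts over all 622 sums are not given, so whether CDS sums reached it more often than other sums cannot be read here. Among the CDS sums, Eef2 and Zfp365 reached the smallest possible p in both ipsilateral comparisons, and Sipa1l1 and Sptbn1 in that with the contralateral side.

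Within single genes, the balance of CDS against 3′UTR tags could be tested for 196 of the 894 genes with both. Each region's tags were scaled by their own total in the library, so a shift common to all genes is removed before this test. The CDS share of these 894 genes, given above, is not scaled in this way. edgeR called 0 of 196 (0% background) in each comparison, with 13 (ipsilateral to sham), 8 (ipsilateral to contralateral) and 5 (contralateral to sham) at an unadjusted p under 0.05. Relative to these totals, the balance was shifted away from the CDS in 112, 106 and 92 of the 196 genes. Against sham, Slc17a7 had the smallest p of the shifts toward the CDS, with a log2 difference of 1.99 (SE 0.67, edgeR adjusted p = 0.384). Atp6v1b2, a subunit of the vesicle proton pump, was at -2.55 against sham and -2.17 against contralateral, and Dgkb, a diacylglycerol kinase gene, at -3.38 and -3.36. Of single peaks, 238 were deep enough to test and 13 of these were CDS peaks. edgeR called 0 of 238 (0% background) in each comparison, and no CDS peak had an unadjusted p under 0.05, against 5, 6 and 1 over all peaks in the 3 comparisons. DESeq2 called 0 CDS peaks and 0 balances, and 1 of 234 peaks (0.427%) between ipsilateral and contralateral libraries.

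Gene lists, chosen with earlier results of these data known, place the members by function. Genes of spectrin, ankyrin and the actin cytoskeleton had a CDS peak in 13 of 18 members and held 5.6% of CDS tags. Their summed level was 127 to 176 in sham, 160 to 198 in contralateral and 104 to 120 in ipsilateral libraries, so the ipsilateral libraries lay below all others. edgeR called none of its 7 tested sums, and DESeq2 called Sptbn1 against contralateral libraries. Of these 7, 7 were lower than in sham and 6 lower than in contralateral libraries, with medians of -0.28 and -0.41. Over all 105 CDS sums the medians were -0.28 and -0.33, and over all 622 sums -0.01 and 0.17. Microtubule proteins and motors (14 of 25 members, 7.0% of CDS tags) were at 160 to 235, 189 to 229 and 107 to 175, with 8 of 8 and 7 of 8 sums lower. Postsynaptic scaffold and CaM kinase genes (15 of 21 members) were at 71.1 to 122, 48.3 to 112 and 34.8 to 72.4, with 4 of 4 sums lower in both comparisons (medians -0.96 and -0.83).

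For presynaptic genes the 3 groups overlapped. Those of the synaptic vesicle and active zone (19 of 23 members, 3.7% of CDS tags) were at 76.0 to 124, 80.2 to 110 and 62.4 to 124, with 4 of 6 and 3 of 6 sums lower (medians -0.09 and 0.02). Glutamate and GABA receptor genes had a CDS peak in 13 of 22 members but held 0.9% of CDS tags, and none was deep enough to test. Genes of glutamate transport and metabolism (9 of 14 members, 1.5%) had 3 tested sums, of which 2 were lower in each comparison. Pumps and channels (17 of 23 members, 2.5%) had 3 of 5 and 2 of 5 lower. Of the miRNA pathway, 9 of 21 members had a CDS peak, and 3 of 4 tested sums were lower in each comparison. Heat shock genes (9 of 22 members) and immediate early genes (3 of 25) had no tested CDS sum. Of the 7 of 18 translation genes with a CDS peak, 2 were tested, Eef2 being one. C2H2 zinc finger genes had CDS peaks in 22 of the 76 with any peak, at 22.6 to 26.04 in sham, 20.7 to 23.6 in contralateral and 11.4 to 24.1 in ipsilateral libraries.

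Cell type markers were read on the same scale. Neuron markers, a list that shares genes with the cytoskeletal and synaptic lists, had CDS peaks in 10 of 18 members, at 111 to 167 in sham, 99.9 to 182 in contralateral and 67.6 to 124 in ipsilateral libraries. Over all exonic peaks of the same list the ranges were 303 to 351, 316 to 374 and 190 to 371. Astrocyte markers (10 of 17 members with a CDS peak) were at 38.4 to 62.4, 35.1 to 69.6 and 40.2 to 64.9, and the oligodendrocyte lineage (5 of 15) at 12.2 to 31.8, 11.8 to 21.9 and 3.48 to 17.1. Microglia (0 of 12), blood (0 of 7) and vascular markers (1 of 13, with 5 tags) were nearly without CDS tags. Over all exonic peaks, Cx3cr1, P2ry12, Tmem119, Cldn5 and Pecam1 had 0 tags. Other members of these lists had some: Csf1r 24, Bsg 38, Pdgfrb 19, Flt1 8 and Hbb-bs 23. The part of cell composition in the lower ipsilateral CDS levels was not tested.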

How the data were processed

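The deposited table holds counts, whole numbers of tags per AGO peak and library, not normalized. Reads were aligned with Novoalign to mm10 per the submitters' processing notes; neither a peak caller nor a step that removes duplicates is named in the sources used here, so tags may not be independent molecules. Gene and region are those the authors deposited, including 16 CDS peaks whose gene names had turned into dates. Columns of other samples numbered 0, and no libraries were duplicates.

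The CDS peaks and all lists were chosen with earlier results of these data known. Groups were compared with edgeR 4.0.16 (quasi-likelihood, TMM factors, filterByExpr with a count minimum of 10, all 13 libraries in 1 fit, Benjamini-Hochberg over all sums or peaks tested). Balances were scaled by the CDS and 3′UTR totals of each library, without TMM factors. DESeq2 1.42.0 was the other tool, in R 4.3.3, and Python 3.11.15 did the rest. The fits were tested on simulated data. Levels are tags per 10000 exonic tags of the library. CDS tags per library (639 to 8612) limit precision.

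Seed sites were compared with every 80-base window, at steps of 10, of the same transcripts' coding sequence or 3′UTR that overlapped no peak. Window shares of sites are averages of transcript shares, with each transcript weighted by its number of peaks. A peak needed at least 50 bases of transcript sequence to be searched.

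Replicate numbers pair the libraries because the labels tie each number to a day of surgery. As a check, deviations from the group means correlated with a median of 0.53 over 11 same-numbered pairs (-0.21 to 0.87) and -0.09 over 45 other pairs (-0.71 to 0.58). The pairs numbered 1 were at 0.83, 0.85 and 0.87, and the remaining same-numbered pairs ran from -0.21 to 0.61. Libraries numbered 1 also had the highest intron and intergenic shares, so the check does not separate surgery day from library makeup.

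Named were the 15 genes with the highest mean level, the 5 with the most peaks and the 10 highest peaks. Also named were the CDS sums and balances of smallest p in each direction (up to 4 and 3), up to 4 genes per list, Slc1a2 and Hspa1b, and all calls. Alternatives changed the tool, scaling, filter, pairing, annotation, libraries and motifs.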

Additional observations from a re-analysis of the deposited data

Results flagged for a closer look

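In groups of 4 or 5 libraries, a library was marked when its gap to the nearest other value took most of the range of its group (Dixon's test). Of 90 groups examined, 10 gave a mark; chance marks about 1 in 20 groups, or 4.5 here.

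The CDS share of all peak tags was 6.46% in ipsilateral replicate 1, against 15.5 to 18.04% in the other ipsilateral libraries; the same library has 67.1% of its tags in introns and intergenic sequence. The CDS share of CDS plus 3′UTR tags was 24.2% in contralateral replicate 5, against 30.6 to 31.8% in its group.

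Sptbn1 was at 55.7 CDS tags per 10000 exonic tags in ipsilateral replicate 5, against 28.8 to 34.6. A peak of Fem1b, labelled both CDS and 3′UTR, was at 12.04 in ipsilateral replicate 4, against 5.57 to 6.97. The 2 overlapping peaks of Cdh18, a cadherin gene, were at 13.4 and 13.1 in contralateral replicate 1, where the other contralateral libraries had 0, and at 30.3 and 29.8 in ipsilateral replicate 1, against 0 to 2.04. In sham, too, replicate 1 had the highest value of both peaks, 23.9.

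Peaks with a let-7a-5p site held 3.68% of CDS tags in sham replicate 1, against 5.03 to 5.27% in the other sham libraries, and 1.84% in contralateral replicate 5, against 4.05 to 4.22%.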

How the results depend on the processing

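DESeq2 called 2 CDS sums between ipsilateral and contralateral libraries (Sipa1l1, -1.16; Sptbn1, -0.94) and 14 of 617 sums in all (2.27%). edgeR without ipsilateral replicate 1 called 1 (Sipa1l1, -1.29) and 8 of 532 in all (1.5%); over libraries left out in turn the count was 0 to 1, and it was 0 throughout in the other comparisons of sums, peaks and balances. Without a filter 1 of 894 balances (0.112%) was called between ipsilateral and sham (Zswim6, edgeR adjusted p = 0.0371, with 1 CDS tag in sham and 14 in ipsilateral libraries). With the replicate number as a block for the pairing, 0 CDS sums, peaks or balances were called, and the medians were -0.30, -0.36 and 0.01. Of 789 values of 42 single results (a gene in a comparison), 784 kept direction and side of the threshold, 3 passed it (the Sipa1l1 and Sptbn1 values above) and 2 turned: the Kcna1 balance, contralateral to sham, 2.74, was -2.46 without the 3 libraries numbered 1 and -2.34 without contralateral replicate 1 (-2.34 to 4.72 over libraries left out in turn).

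The median of CDS sums ranged, over libraries left out, from -0.42 to -0.21, -0.41 to -0.20 and -0.19 to 0.07. Less the 3′UTR median it stayed below 0 in both ipsilateral comparisons over 21 settings (-0.60 to -0.36 and -0.63 to -0.35) and took both signs contralateral to sham (-0.30 to 0.10). Less the median of all sums it ranged from -0.51 to -0.09, -0.56 to -0.12 and -0.22 to 0.20, smallest in size in the ipsilateral comparisons without ipsilateral replicate 1; contralateral to sham, the median of all sums moved from -0.10 to 0.09 with all tags as library size. The CDS share of peak tags was 16.6, 17.8 and 14.7% in sham, contralateral and ipsilateral libraries, 28.8, 27.8 and 22.7% of exonic tags, 30.5, 29.6 and 23.96% of CDS plus 3′UTR tags and 37.7, 36.1 and 29.5% in genes with both. Plain CDS labels gave 24.8, 24.3 and 19.4% of exonic tags. Leaving out libraries gave 14.8 to 19.4, 16.2 to 19.4 and 13.9 to 16.8% of peak tags, and 27.4 to 30.9, 26.9 to 29.5 and 22.0 to 23.5% of exonic tags. The share of peaks with a miR-9-5p site was 12.1% with 6-base matches and 12.3% in peaks of at least 20 tags, and with a let-7a-5p site 5.37% and 7.35%; the ratios over windows were 3.43 and 7.22, and 3.80 and 10.1. Alternatives by gene group, Cdr1, the libraries numbered 1 and reversed letters were chosen after seeing the data. The median CDS peak has 10 tags, so single peaks are limited most; 13 of 3933 could be tested. The cause of these shifts was not tested.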
